A study of Sus scrofa with 24 samples.

Results

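Cytosolic ribosomal proteins are the protein components of the 40S and 60S subunits that translate nuclear-encoded mRNAs. Their genes were taken from the gene table of an RNA sequencing study of sow intestine by name alone: every row called RPL or RPS with a number and at most a short suffix, or RPLP0, RPLP1 or RPLP2, with the RPS6K kinases left out. The rule found 81 of 20674 rows, 51 of the large and 30 of the small subunit. They carry 80 symbols, since RPL18 is listed once as the gene on chromosome 6 and once as a copy on chromosome 1 that the annotation describes as a pseudogene.

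Both subunits need 1 copy of nearly every ribosomal protein, and in mammals the genes are expressed together at high levels in almost every cell. Their mRNAs are short, and in human and mouse they begin with a terminal oligopyrimidine tract through which the kinase mTORC1 and the RNA-binding protein LARP1 control their translation. In the gut, dividing crypt cells and antibody-secreting plasma cells are known for a large content of ribosomes.

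The study sequenced poly(A) RNA from the colon and the ileum of female pigs on day 114 of gestation, after 1 of 4 diets fed from breeding on. HN had 7.46% crude fibre with 0.05% N-carbamylglutamate (NCG, an analogue of N-acetylglutamate, which activates the first enzyme of the urea cycle). HF had 7.46% crude fibre without NCG, LN had 3.73% crude fibre with 0.05% NCG, and LF had 3.73% crude fibre without NCG. Each diet was given to 100 sows. Sequencing covered 3 libraries for every pair of tissue and diet, 8 groups and 24 libraries together. No label says that they come from separate sows, so p-values measure only the spread between libraries, which may be technical. Breed and age are not used here.

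Libraries held 14843272 to 18575695 counts in the colon and 11951729 to 19896941 in the ileum. The labelled tissues were set against defining genes. HOXD13, a transcription factor of the hindgut, lay at 0.620 to 21.6 CPM in the colon and at 0 to 0.193 CPM in the ileum (CPM, counts per 1e6 of the TMM-scaled library size). The brush-border enzyme sucrase-isomaltase (SI) lay at 0.470 to 64.4 CPM in the colon and at 109 to 1364 CPM in the ileum. The bile acid carrier FABP6 was above 500 CPM in 3 of 12 ileum libraries (HN 2, HF 2 and LF 1) and between 0 and 38.0 CPM in the others, so that a defining gene of the ileum was at or near 0 in most libraries with that label. Of 6 ileum markers 5 were called lower in the colon, namely FABP6, SI, APOA4, APOB and MTTP, and the bile acid transporter SLC10A2 was not (0.59, adjusted p = 0.822). Colon HN 1 and LF 2 stood apart with the lowest colon levels of enterocyte genes (294 and 137 CPM summed over 7 markers), ileum LN 3 with 1126 CPM of the adipocyte hormone ADIPOQ, and ileum LF 3 with the highest ileum level of smooth muscle genes (37792 CPM summed over 8 markers). In the colon, the smooth muscle gene MYH11 had 35921, 5485 and 492 CPM with HN and 339, 649 and 636 CPM with HF. It had 17582, 10629 and 468 CPM with LN and 23285, 25763 and 8146 CPM with LF.

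Of the 81 genes, 79 had counts in every library and all 79 passed the filter on low counts. The remaining rows, RPL10L (the testis copy of RPL10 in mammals) and the RPL18 pseudogene, had 0 counts in all 24 libraries, which allows up to 3 counts in a library, counting error only. Ribosomal protein sequences have many processed pseudogenes, and how reads that match several places were counted is not given in the sources used here. Another 9 rows without a symbol that are described as 40S or 60S ribosomal proteins took 0.00412% to 0.0110% of the counts. The 81 genes lie on 17 chromosomes. On Sscrofa11.1, RPL3L (chromosome 3, 40004907 to 40016702) begins 1796 bases after the end of RPS2 on the same strand.

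Together the genes took 4.16% to 5.82% of the counts in colon libraries and 4.74% to 7.97% in ileum libraries. In the colon the share was 5.30% ± 0.75 with HN, 5.52% ± 0.33 with HF, 4.81% ± 0.65 with LN and 5.17% ± 0.55 with LF (mean ± SD, n = 3). In the ileum it was 6.83% ± 0.46 with HN, 6.90% ± 0.45 with HF, 5.36% ± 0.62 with LN and 7.04% ± 0.86 with LF. LN was thus the lowest diet in both tissues, and in the ileum its 3 libraries (5.35%, 5.99% and 4.74%) lay below those of the 3 LF libraries (6.87%, 7.97% and 6.27%), whereas in the colon LN and LF overlapped. Counted per length, as TPM (counts divided by gene length, scaled to the same sum in each library), the same genes made up 11.2% to 15.2% of the colon and 12.2% to 18.4% of the ileum transcripts. On that scale LN was again lowest (12.7% ± 1.31 in the colon and 13.2% ± 1.29 in the ileum), against 14.0% ± 1.06 in the colon and 17.0% ± 1.30 in the ileum with LF. HN, however, stood above HF per length in both tissues (14.2% ± 0.74 against 13.6% ± 0.97 in the colon, 17.3% ± 1.61 against 16.3% ± 0.22 in the ileum), so the order of those diets depended on the scale.

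**Figure D1:**
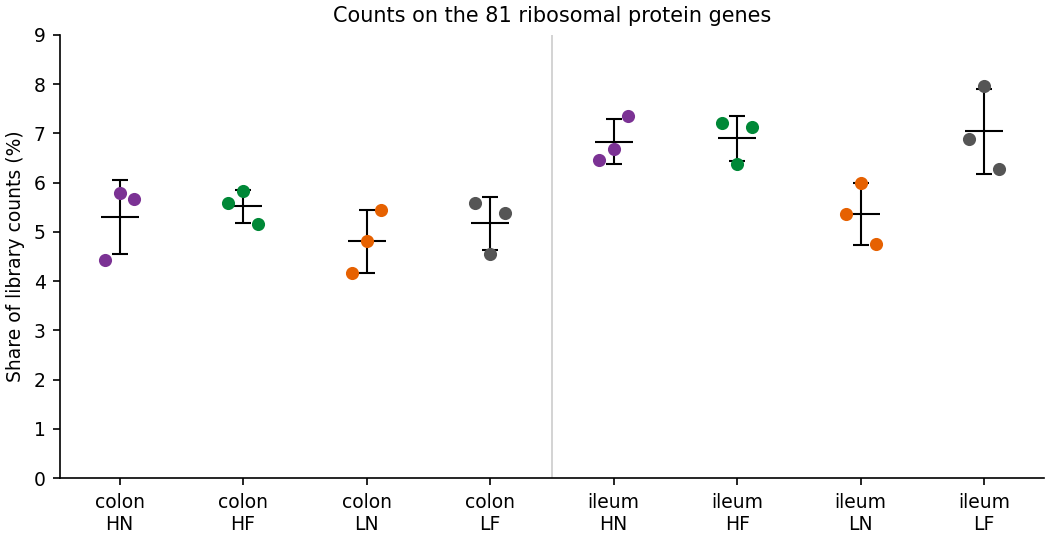
Share of each library's counts that fell on the 81 ribosomal protein genes (vertical axis, %), for the 8 groups of tissue and diet; points are libraries, the horizontal mark is the mean of 3 libraries and the bars are ± 1 SD. Colon libraries lie between 4.16% and 5.82%, ileum libraries between 4.74% and 7.97%, and LN has the lowest mean in each tissue.

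No single ribosomal protein gene was among the 10 most abundant of any library by counts, but 15 to 36 were among the 100 most abundant. By mean TPM over all libraries, 51 of the 100 highest genes of the whole table were ribosomal protein genes. Among the highest was RPL23, a large subunit protein, at 3745 ± 560 TPM (mean ± SD, n = 24). RPS27A, which is made as a fusion with ubiquitin, had 3700 ± 576 TPM, RPL23A, at the tunnel exit, 3670 ± 578 TPM, and RPL10, which joins the subunit late in assembly, 3578 ± 493 TPM. These levels differ by less than their spread. The median gene had 1674 TPM and 63 genes exceeded 1000 TPM.

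At the other end stood paralogs. RPL26L1 had 95.0 ± 16.9 TPM and RPL7L1, a nucleolar relative of RPL7, 71.8 ± 11.8 TPM. RPL3L, the form of RPL3 known from striated muscle, had 1.74 ± 0.85 TPM, or 6 to 51 counts per library. The order of the genes by level was alike in all libraries, with Spearman coefficients of 0.894 to 0.992 between pairs of libraries over 79 genes, which share the same lengths. Across genes, level and length ran against each other (Spearman -0.45 over 79 genes), where the level itself is divided by the length. Deposited lengths of the 81 genes ran from 348 to 5903 bases, and the order changed on the scale of counts. RPS2 (5903 bases) had rank 1 by mean CPM and rank 68 by mean TPM, and RPS24 (3073 bases) had ranks 14 and 65. RPL26L1, RPL7L1 and RPL3L were the lowest genes with counts on both scales.

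The comparison of the tissues asks how the levels differ between colon and ileum over all 4 diets. Ribosomal protein genes were lower in the colon: 61 of 79 fell, none rose, and the fitted change was negative for every one of the 79. Of all 15675 genes tested, 15.9% were called lower and 12.5% higher (edgeR quasi-likelihood F-test, Benjamini-Hochberg adjusted p under 0.05). The median log2 change was -0.35 over the ribosomal protein genes and -0.03 over all genes. Libraries of the tissues overlapped for each of the genes: none had all 12 colon libraries below all 12 ileum libraries, as 1.03% of all genes had. In whole tissue, fewer cells of a type and less RNA per cell cannot be told apart.

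The smallest adjusted p belonged to RPS20, a protein of the 40S head (gene 414395, chromosome 4, 75762209 to 75763449). Its level was 507 CPM in the lowest, 693 in the median and 768 in the highest colon library, against 766, 1019.5 and 1325 CPM in the ileum. All but 1 colon library (LF 1) lay below every ileum library. The log2 change was -0.58 ± 0.09 (± SE, adjusted p = 7.88e-05, edgeR).

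RPL3L had the largest change, -1.17 ± 0.24 (adjusted p = 0.00127), at levels near the floor of detection. It lay at 0.403, 0.970 and 1.42 CPM in the lowest, median and highest colon library and at 0.708, 1.91 and 3.99 CPM in the ileum. Ileum HN 2 was the one ileum library inside the colon range, while RPS2, its neighbour upstream, changed by -0.31 ± 0.10 (adjusted p = 0.0312). RPS29, a small zinc-binding protein of the 40S head (chromosome 1, 179454923 to 179456847), had 146, 204 and 274 CPM in the colon and 195, 296 and 437 CPM in the ileum, lowest, median and highest. It fell by 0.50 ± 0.10 on the log2 scale (adjusted p = 0.00106).

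RPS16, whose tail reaches the tRNA in the P site (chromosome 6, 48085684 to 48088368), lay at 324, 472 and 522 CPM in the lowest, median and highest colon library and at 432, 619 and 741 CPM in the ileum. It changed by -0.47 ± 0.08 (adjusted p = 0.000455). RPL39, a very short protein of the exit tunnel on chromosome X, lay at 325 to 515 CPM in the colon and at 507 to 720.3 CPM in the ileum. The tissues overlapped for it in a narrow band only, and it changed by -0.43 ± 0.08 (adjusted p = 0.000703). RPL30 (chromosome 4, 38702220 to 38720420), whose yeast form binds its own pre-mRNA, lay at 298 to 541 CPM in the colon and at 462 to 847 CPM in the ileum and changed by -0.47 ± 0.09 (adjusted p = 0.00121). In each of the 33 other settings tried, which leave out a library or change the model, RPS20, RPS16, RPL39, RPS29, RPL30 and RPL3L kept adjusted p under 0.05.

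**Figure D2:**
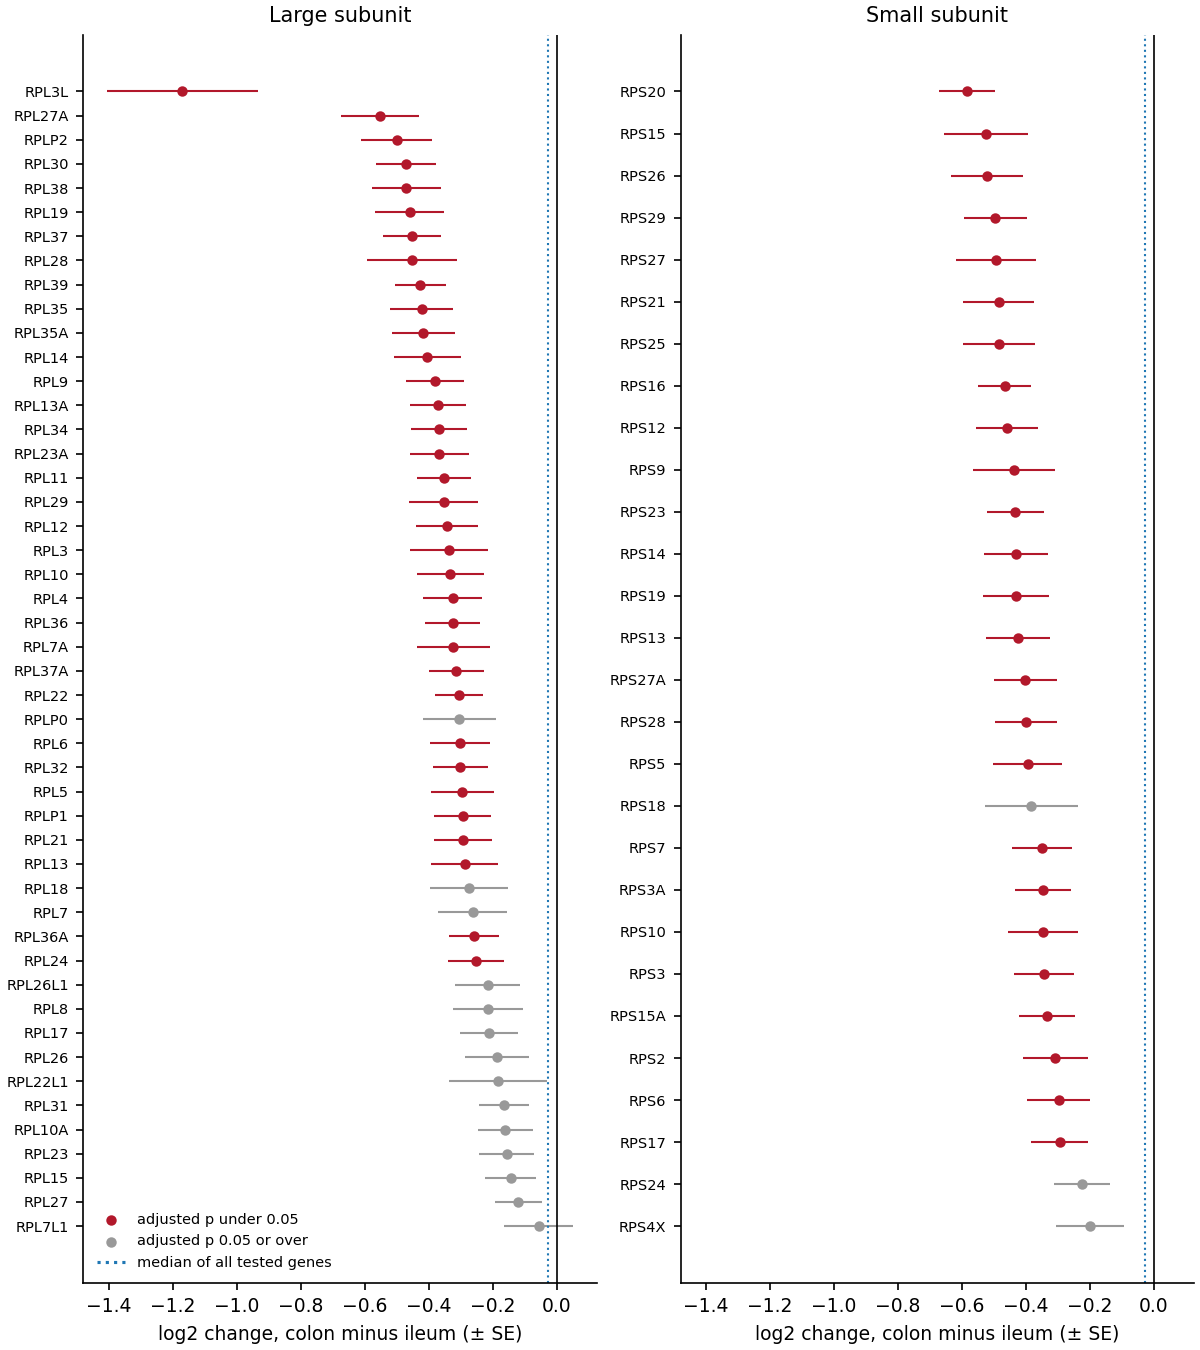
Log2 change between colon and ileum (horizontal axis, colon minus ileum, ± SE) for 48 large subunit genes on the left and 28 small subunit genes on the right, each ordered with the strongest fall on top; red points passed an adjusted p of 0.05 and the dotted line is the median of all tested genes at -0.03. All 76 points lie left of 0, from -1.17 for RPL3L to -0.06 for RPL7L1.

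By subunit, of the small subunit genes 27 of 30 fell, with a median of -0.41, and of the large subunit genes 34 of 49 fell, with a median of -0.31. The ratio of large to small subunit counts was 1.42 to 1.52 in colon libraries and 1.36 to 1.45 in ileum libraries, which overlap slightly.

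Of the acidic stalk, which recruits elongation factors, RPLP2 fell by 0.50 ± 0.11 (adjusted p = 0.00275) and RPLP1 by 0.29 ± 0.09 (adjusted p = 0.0202), while RPLP0 changed by -0.30 ± 0.11 and did not pass (adjusted p = 0.0532). RPL5 and RPL11, which carry 5S rRNA and can bind the p53 regulator MDM2, fell by 0.30 ± 0.10 (adjusted p = 0.0322) and 0.35 ± 0.08 (adjusted p = 0.00461). RPS6, the substrate of the S6 kinases, fell by 0.30 ± 0.10 (adjusted p = 0.0292), RPS3, at the mRNA entry channel, by 0.34 ± 0.09 (adjusted p = 0.0118) and RPS27A by 0.40 ± 0.10 (adjusted p = 0.00555). RPS19, mutated in the human anaemia named after Diamond and Blackfan, fell by 0.43 ± 0.10 (adjusted p = 0.0050), and RPL38, which mouse embryos need for the translation of Hox mRNAs, by 0.47 ± 0.11 (adjusted p = 0.00329). RPL10A changed by -0.16 ± 0.09 (adjusted p = 0.172), and its 12 colon libraries (538 to 793 CPM) lay within the range of the 12 ileum libraries (499 to 1004 CPM).

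Ribosomal proteins outside the naming rule were lower as well. All 6 on the list fell, with a median of -0.46. FAU, which encodes RPS30, fell by 0.81 ± 0.15 (adjusted p = 0.000525), RPS27L by 0.79 ± 0.14 (adjusted p = 0.000402) and RPL36AL by 0.49 ± 0.11 (adjusted p = 0.00247). Other mRNAs known in human and mouse to carry the oligopyrimidine tract had 4 of 17 genes lower and none higher, with a median of -0.22. Among all genes tested, 15.9% were called lower and 12.5% higher. TPT1, a calcium-binding protein, fell by 0.36 (adjusted p = 0.00932), the elongation factor subunit EEF1B2 by 0.45 (adjusted p = 0.0150) and BTF3, of the nascent chain complex, by 0.33 (adjusted p = 0.0191). The initiation factor subunit EIF3F was the other one, at -0.39 (adjusted p = 0.0193).

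The rest of the protein synthesis machinery showed smaller medians, and its counts stand against 15.9% lower and 12.5% higher among all genes. Of 22 translation initiation factors 3 fell (EIF3G by 0.32, EIF3K by 0.29 and EIF3D by 0.28) and 1 rose (the cap-binding protein EIF4E by 0.31, adjusted p = 0.0393), with a median of 0.02. Of 40 ribosome assembly genes 3 fell and none rose, with a median of -0.09: MDN1, an ATPase that strips assembly factors from the pre-60S particle, fell by 0.42, the nucleolar GTPase GNL3 by 0.36 and UTP20 by 0.34. RNA polymerases I and III and their factors had 5 of 24 genes lower and 1 higher (median -0.14), with POLR1E at -0.45 (adjusted p = 0.000999), POLR3B at 0.26 and TAF1A at -0.25, and with POLR3C (-0.22), RRN3 (-0.17) and POLR1D (-0.38) as the other lower ones. Of 11 genes listed for the control of ribosomal protein mRNAs 4 fell and 1 rose. The repressor EIF4EBP3 fell by 1.18 (adjusted p = 0.0048) and LARP1 by 0.37 (adjusted p = 0.0209), and the elongation factor kinase EEF2K rose by 0.42 (adjusted p = 0.02). The others that fell were the transcription factor MYC, by 0.44 (adjusted p = 0.0273), and LARP4, by 0.35 (adjusted p = 0.0347). EIF3F, EIF4E, POLR3C, RRN3, POLR1D, MYC and LARP4 were named after their values in this comparison were seen. Among lists kept for comparison, of 16 nuclear genes of oxidative phosphorylation 1 rose (UQCRB by 0.42, adjusted p = 0.0264) and none fell (median 0.08), and 0 of 14 proteasome core genes passed (edgeR; 0 at an unadjusted p under 0.05; median -0.16). Of all genes, 40.1% were under that unadjusted mark in either direction.

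Markers of other cell types moved between the tissues, where 15.9% of all genes were called lower in the colon and 12.5% higher. Smooth muscle genes rose in the colon in 7 of 8 cases, with summed levels of 1000 to 92215 CPM in the colon and 747 to 37792 CPM in the ileum. Plasma cell genes summed to 326 to 13156 CPM in the colon and 265 to 50955 CPM in the ileum, with 1 of 5 lower (TNFRSF17). B cell genes had 2 of 6 lower, CD79A among them, with summed levels of 3.06 to 234 CPM in the colon and 4.59 to 1017 CPM in the ileum. T and NK cell genes had 3 of 8 lower (CD8B, CD3D and CD2), with 23.7 to 516 CPM in the colon and 136 to 1044 CPM in the ileum. Their part in the lower ribosomal protein levels was not tested. The fall of the ribosomal protein genes was called for fewer or more of them without the libraries that stood apart: without colon HN 1 and LF 2 it was called for 42 genes (median -0.30), and without the 3 ileum libraries high in FABP6 for 68 (median -0.43). Leaving out single libraries gave 42 (without ileum LF 2) to 66 genes. With the trend of each library with gene length removed, 36 genes were called, with a median of -0.23. Shares of all genes called in these runs are not given here, so the changes in count may not be particular to the ribosomal protein genes.

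**Figure D3:**
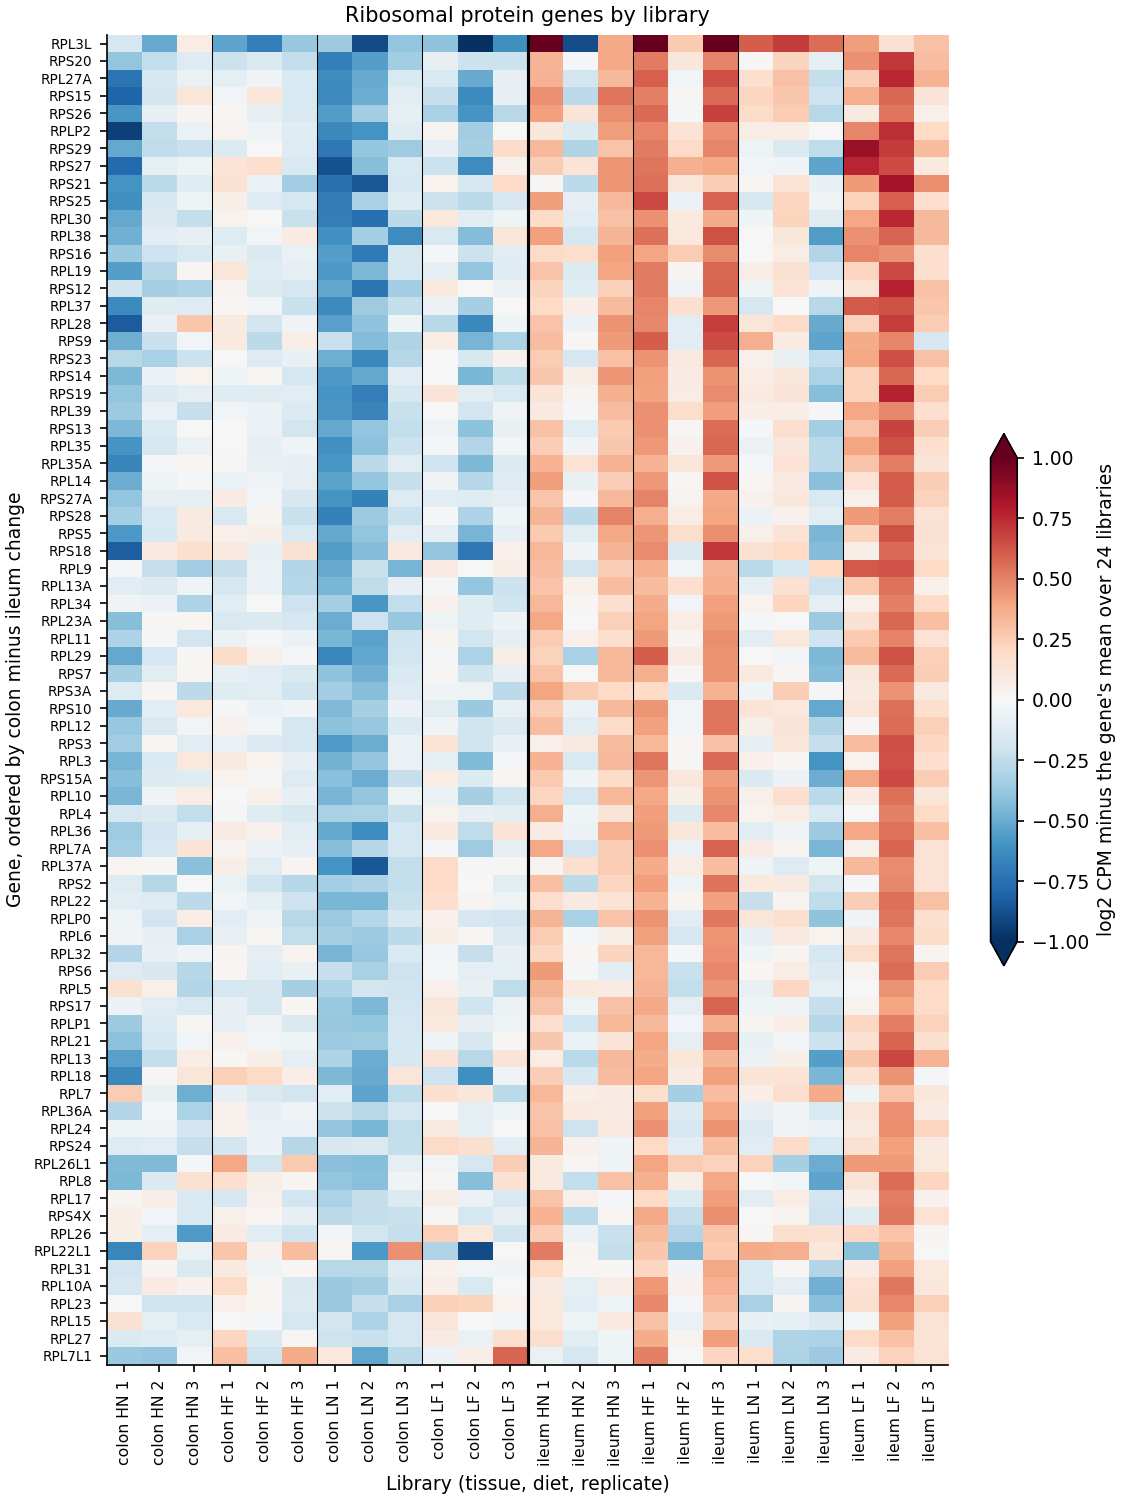
Level of 76 ribosomal protein genes with counts (rows, ordered by their colon minus ileum change, strongest fall on top) in the 24 libraries (columns, colon left of ileum); colour is log2 CPM minus the gene's mean over all libraries, and values beyond ± 1 take the end colours. Most genes shift together from library to library, with ileum LF 2, HF 1 and HF 3 high and colon LN 1, LN 2 and HN 1 low, while RPL3L, RPL7 and RPL22L1 depart from the common pattern.

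The diets were compared within each tissue. In the ileum, the effect of NCG was the mean of HN and LN minus the mean of HF and LF. Levels of 77 of 79 ribosomal protein genes were lower with NCG, with a median log2 change of -0.29 against -0.07 for all genes, but none passed the threshold. Of all 15103 genes 5.85% passed, with 5.42% called higher and 0.43% lower. Without adjustment, p was under 0.05 for 22 ribosomal protein genes, all lower (edgeR), and for 9.0% of all genes in that direction. That number was lowest without HF 1 (7 genes) or LF 2 (8 genes), and 11 without HN 2, HF 3 or LN 3. How the share of all genes changed in these runs is not given here, so the fall may be general. DESeq2 called 12 genes lower, against 3.12% of all genes.

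RPS29 had the smallest p. Its levels were 302, 195 and 293 CPM with HN, against 345, 274 and 337 CPM with HF, and 233, 218 and 202 CPM with LN, against 437, 391 and 299 CPM with LF. The LN libraries lay below the LF libraries, and HN 1 and HN 3 lay within the HF range. The NCG change was -0.55 ± 0.16 (adjusted p = 0.0746).

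RPL37, a zinc-binding protein of the large subunit (chromosome 16, 25800883 to 25803526), had 506, 570 and 470 CPM with LN and 871, 883 and 689 CPM with LF, again apart. With HN it had 654, 596 and 707 CPM, and with HF 797, 638 and 768 CPM. Its change was -0.44 ± 0.14 (adjusted p = 0.0995). RPL27 (chromosome 12, 19892210 to 19894202) had 313, 282 and 280 CPM with LN against 398, 426 and 381 CPM with LF. In the high-fibre diets it had 393, 321 and 337 CPM with HN against 448, 356 and 464 CPM with HF, and its NCG change was -0.39 ± 0.13 (adjusted p = 0.114).

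Of the proteins singled out above for their roles, RPL10A changed by -0.41 ± 0.15 (adjusted p = 0.148), RPL38 by -0.43 ± 0.18 (adjusted p = 0.195) and the stalk protein RPLP2 by -0.35 ± 0.15 (adjusted p = 0.209) with NCG. RPS19, RPL11, RPS3, RPLP1, RPS27A, RPS6, RPLP0 and RPL5 lay between -0.34 and -0.15, with adjusted p of 0.289 to 0.675. All of them were negative and none passed in edgeR, while DESeq2 called RPL10A lower (-0.40, adjusted p = 0.0205).

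The larger median was that of LN minus LF, -0.37 with 76 of 79 genes negative, against -0.05 for all genes. None passed there, where 4.34% of all genes did, and the smallest adjusted p was 0.0901 (RPS29, -0.78 ± 0.23); unadjusted p was under 0.05 for 16, all lower, and for 6.93% of all genes in that direction. Between HN and HF the median was -0.22 with 76 negative, against -0.04 for all genes, and 0 passed, as did 0.0% of all genes (edgeR; smallest adjusted p 0.642, RPL7L1, -0.41 ± 0.19; 0 ribosomal protein genes and 8.07% of all genes at an unadjusted p under 0.05). The interaction of fibre and NCG, which tests whether these differ, was called for 0 ribosomal protein genes and for 0.0% of all genes (edgeR; 0 ribosomal protein genes and 4.45% of all genes at an unadjusted p under 0.05). LN had the lowest of the 4 diet means for 75 of 79 genes, as for 33.8% of all tested genes. The 3 LN libraries lay below the 3 LF libraries for 43 of the 79 genes (54.4%), against 11.0% of all genes. A single library stood at each end: LN 3 was the lowest of the 12 for 58 genes (73.4%) and LF 2 the highest for 57 (72.2%). Of all tested genes, 22.3% were lowest in LN 3, which was also the highest library for 19.6%, and 6.59% were highest in LF 2. Without LN 3 the median NCG change was -0.24, and without LF 2 it was -0.23.

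The NCG change ran with gene length. Over all 15103 genes the Spearman coefficient between length and change was 0.28, and the genes under 1000 bases had a median change of -0.30, the same as the 52 ribosomal protein genes of that length (-0.30). The other 27, of 1000 bases or more, also had a median of -0.29, all negative, where all tested genes of that length had -0.05. With the length trend removed from each library, the median of the ribosomal protein genes was -0.048, with 52 of 79 negative.

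**Figure D4:**
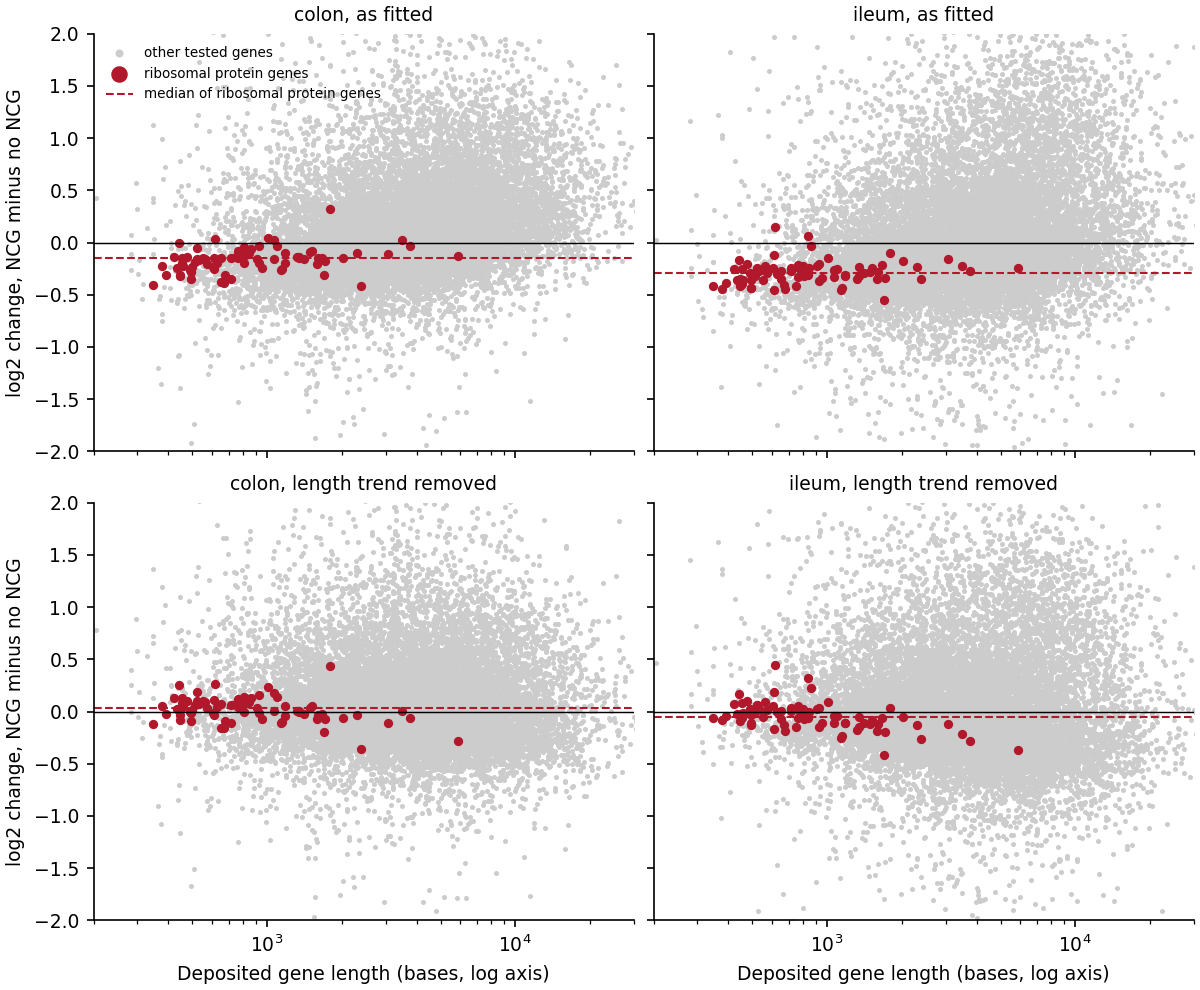
Log2 change with NCG (vertical axis, NCG minus no NCG, shown from -2 to 2) against the deposited gene length in bases (horizontal log axis) for the colon (left) and the ileum (right), as fitted (upper row) and with the length trend of each library removed (lower row); red points are ribosomal protein genes, grey points other tested genes, and the dashed line is the median of the red points. As fitted the medians are -0.15 in the colon and -0.29 in the ileum, and with the trend removed they are 0.036 and -0.048.

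Beside this stood differences in cell type markers, none of which passed in the ileum NCG comparison. The sum of the plasma cell markers was 265 to 37366 CPM with NCG and 5716 to 50955 CPM without it, that of the proliferating cell markers 84.9 to 877 CPM with NCG and 566 to 794 CPM without it. Adipocyte markers summed to 27.8 to 6044 CPM with NCG, highest in LN 3, and to 47.7 to 191 CPM without it. Their part in the ribosomal protein values was not tested, and without LN 3 and LF 3 together the median was -0.27.

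Other genes of the pathway in the ileum held calls in both directions. The 6 ribosomal proteins outside the rule were all lower with a median of -0.28 and none passed; FAU changed by -0.72 (adjusted p = 0.112), RPL36AL by -0.30 (adjusted p = 0.411) and RPSA by -0.28 (adjusted p = 0.415). Of all genes tested there, 5.42% were called higher, against which the following counts stand. Among ribosome assembly genes 3 of 40 rose, namely the 60S export adaptor NMD3 by 1.60 (adjusted p = 0.00291), the snoRNP core protein NOP58 by 0.76 (adjusted p = 0.00776) and the small subunit processome protein WDR43 by 0.54 (adjusted p = 0.0264). NOP10, another snoRNP protein, fell by 0.45 (adjusted p = 0.0349; named after its value was seen), and the median was -0.23. TAF1D, of the polymerase I selectivity factor, rose by 1.06 (adjusted p = 0.00789) and POLR3G, of polymerase III, by 1.34 (adjusted p = 0.0136), and POLR3D changed by -0.44 (adjusted p = 0.122). Of the control genes 3 of 11 rose: TIA1 and TIAL1, which bind oligopyrimidine mRNAs in human cells under stress, by 1.11 (adjusted p = 0.00379) and 0.73 (adjusted p = 0.0167), and LARP4, which binds poly(A) tails, by 0.99 (adjusted p = 0.00448). EIF5B, which joins the subunits, was the 1 initiation factor of 22 that rose (0.98, adjusted p = 0.0112), beside EIF3A at 0.35 and EIF4H at -0.39 (adjusted p = 0.127 each).

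Both lists kept for comparison had lower medians than the ribosomal proteins. The 16 oxidative phosphorylation genes had a median of -0.43, all negative, and none passed (edgeR; 5 at an unadjusted p under 0.05), with NDUFA6 at -0.56 (adjusted p = 0.0845). The 14 proteasome core genes had a median of -0.37, all negative, and none passed (edgeR; 5 at an unadjusted p under 0.05). Other oligopyrimidine mRNAs had a median of -0.16 over 17 genes and none passed (edgeR; 2 at an unadjusted p under 0.05), with EIF3E at 0.55 (adjusted p = 0.10), HNRNPA1 at -0.37 and EIF3F at -0.29. Against these counts, 21.5% of all genes were under that unadjusted mark in either direction, and 9.0% were under it and lower.

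In the colon, 74 of 79 ribosomal protein genes were lower with NCG, with a median of -0.15 against 0.06 for all genes, and none passed; none of the 15075 genes did (0.0%). Without adjustment p was under 0.05 for 12, all lower, and for 4.73% of all genes in that direction, and DESeq2 called 6 lower, against 1.27% of all genes. The 12 became 3 without HF 1, 4 without LN 1 and 5 without LF 3. The shares of all genes without these libraries are not given here, so the drop may not be particular to ribosomal protein genes. Without LF 2, 1.91% of all genes passed in edgeR, and without HN 1 and LF 2 together 3.06% did, with 0 ribosomal protein genes in both. RPS12, a protein of the 40S beak, had 476, 434 and 443 CPM with HN against 561, 497 and 487 CPM with HF, and 382, 329 and 431 CPM with LN against 586, 547 and 525 CPM with LF. All 6 libraries with NCG lay below the 6 without it. Its change was -0.35 ± 0.11 (adjusted p = 0.288). RPL30 changed by -0.38 ± 0.13 (adjusted p = 0.316) and RPS23, of the decoding centre, by -0.31 ± 0.11 (adjusted p = 0.321). LN had the lowest diet mean for 70 of 79 genes, as for 16.8% of all genes, and the 3 LN libraries lay below the 3 LF libraries for 32 of the 79 genes (40.5%), against 10.7% of all genes. With the length trend removed the median change turned to 0.036. Smooth muscle markers, with a median of 1.46, and B cell markers, with 1.15, were higher with NCG without passing. Proliferating cell markers summed to 87.1 to 516 CPM with NCG (median 417) and to 86.3 to 829 CPM without it (median 585). Enterocyte markers summed to 294 to 10684 CPM with NCG (median 6272) and to 137 to 12993 CPM without it (median 9251). The part of these markers was not tested.

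The medians for LN against LF and HN against HF in the colon were -0.24 and -0.10, and the interaction was called for 0 ribosomal protein genes and 0.0% of all genes (edgeR; 0 ribosomal protein genes and 15.0% of all genes at an unadjusted p under 0.05). The 6 ribosomal proteins outside the rule had a median of -0.26, with RPS27L at -0.46 (adjusted p = 0.20). The proteasome core (-0.38) and oxidative phosphorylation (-0.37) lists had lower medians than the ribosomal proteins, ribosome assembly had -0.23, and none of their genes passed (edgeR; 9, 9 and 10 genes at an unadjusted p under 0.05). The lists of the proteasome core and oxidative phosphorylation held 14 and 16 genes. Of all genes, 12.4% were under that unadjusted mark in either direction. Whether the NCG effect differs between the tissues was tested in the model of all 24 libraries: 0 ribosomal protein genes and 0.0% of all genes passed, with a median difference of 0.09, colon minus ileum (edgeR; 0 ribosomal protein genes and 2.99% of all genes at an unadjusted p under 0.05).

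Fibre was compared as the mean of HN and HF minus the mean of LN and LF. In the ileum the median was 0.09, with 72 of 79 genes higher with high fibre, against -0.02 for all genes, and 0 ribosomal protein genes and 0.0% of all genes passed (edgeR; 0 and 5.26% at an unadjusted p under 0.05). That median moved with single libraries, to 0.046 without HF 3, 0.047 without LN 3 and 0.155 without HF 2. Without LN 3 and LF 3 together it was 0.031, with 59 of 79 genes higher, against 0.02 for all genes, and without the 3 libraries high in FABP6 it was 0.17. In the colon the median was 0.10, with 73 of 79 higher, against 0.00 for all genes, and again 0 passed, as did 0.0% of all genes (edgeR; 0 and 4.59% at an unadjusted p under 0.05). With the length trend removed the colon median was 0.039, with 59 of 79 higher, against 0.03 for all genes. The fibre effect differed between the tissues by a median of 0.01, with 0 ribosomal protein genes and 0.0% of all genes called (edgeR; 0 and 2.79% at an unadjusted p under 0.05). The smallest p in the ileum belonged to RPL27 (0.16 ± 0.13), RPS26, at the mRNA exit channel (0.23 ± 0.19), and RPS16 (0.15 ± 0.13), with adjusted p of 0.811, 0.811 and 0.815. In the colon they were RPL18 (0.27 ± 0.18), RPS26 (0.21 ± 0.15) and RPL38 (0.20 ± 0.14), each with an adjusted p of 0.836.

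Colon RPS26 shows the spread behind these values, at 482, 679 and 733 CPM with HN, 725, 672 and 647 with HF, 489, 566 and 675 CPM with LN and 574, 478 and 596 with LF. The HF libraries lay above the LF libraries, and HN and LN overlapped. With NCG in the feed, HN minus LN had a median of 0.17 in both tissues, and without it HF minus LF had 0.01 in both. These comparisons share their libraries with those for NCG and are not independent of them. Markers ran with fibre too, without passing: smooth muscle genes had a median of -2.33 in the colon and -2.14 in the ileum, all 8 lower in each, and their part in the ribosomal protein values was not tested. Ribosome assembly genes were higher with high fibre in 39 of 40 cases in the ileum (median 0.22; HEATR1 0.42, WDR12 0.36 and BMS1 0.34, adjusted p = 0.802 each) and lower in 32 of 40 in the colon (median -0.13; GNL3 -0.43, TSR1 -0.31 and LTV1 -0.40, adjusted p = 0.836 each), and none passed in either tissue (edgeR; 6 in the ileum and 3 in the colon at an unadjusted p under 0.05). Of all genes, 5.26% in the ileum and 4.59% in the colon were under that mark.

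Several ribosomal proteins have a close relative that can replace them or acts beside them, and the share of each relative in its pair was computed per length. Of 30 tests (6 pairs in 5 comparisons, permutation tests of the log2 ratio, two-sided, Benjamini-Hochberg adjusted over the 30) 2 passed. RPL3L made up 0.0348% to 0.105% of RPL3L plus RPL3 in the colon and 0.0501% to 0.193% in the ileum, on average 0.0673% ± 0.0190 in the colon and 0.121% ± 0.0455 in the ileum (SD, n = 12). The log2 ratio differed by -0.77, colon minus ileum (adjusted permutation p = 0.0192). The ranges overlap, and a library holds 6 to 51 RPL3L counts.

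RPL36AL and RPL36A encode nearly the same protein, so the counting could have split their reads. RPL36AL had 48.7% ± 1.5 of the pair in the colon and 52.3% ± 2.70 in the ileum (SD, n = 12), a difference of -0.21 in the log2 ratio (adjusted permutation p = 0.0192). RPL22L1, which in mouse is raised when its partner RPL22 is lost, had 22.0%, 17.6% and 14.5% of its pair in ileum HN, against 17.4%, 13.8% and 16.7% in ileum HF. It had 25.2%, 22.0% and 22.4% in ileum LN, against 12.3%, 16.1% and 15.4% in ileum LF. The LN and LF libraries were apart and HN and HF overlapped. With NCG the mean was 20.6% ± 3.86 and without NCG 15.3% ± 1.92 (SD, n = 6), a log2 difference of 0.51 that did not pass (exact permutation p = 0.0216, adjusted p = 0.130).

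RPL7L1 went the other way in the ileum, with 2.09% ± 0.42 of its pair with NCG and 2.75% ± 0.34 without (exact permutation p = 0.0173, adjusted p = 0.130, n = 6). RPL26L1 had 5.07% ± 1.28 of its pair in the colon and 5.13% ± 1.03 in the ileum, and RPS27L had 9.12% ± 2.65 in the colon and 10.8% ± 3.56 in the ileum; neither passed in any comparison. As single genes RPL7L1 (-0.06 ± 0.11), RPL22L1 (-0.18 ± 0.15), RPL26L1 (-0.22 ± 0.10) and RPS4X (-0.20 ± 0.11) were among those not called between colon and ileum (adjusted p = 0.732, 0.390, 0.120 and 0.166), as were the partners RPL7 (-0.26 ± 0.11) and RPL26 (-0.19 ± 0.10), at adjusted p of 0.0736 and 0.175. RPL3 (-0.34 ± 0.12, adjusted p = 0.0432) and RPL22 (-0.31 ± 0.08, adjusted p = 0.00573) fell; RPL3 lost its call in 18 of the 24 omissions of 1 library.

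**Figure D5:**
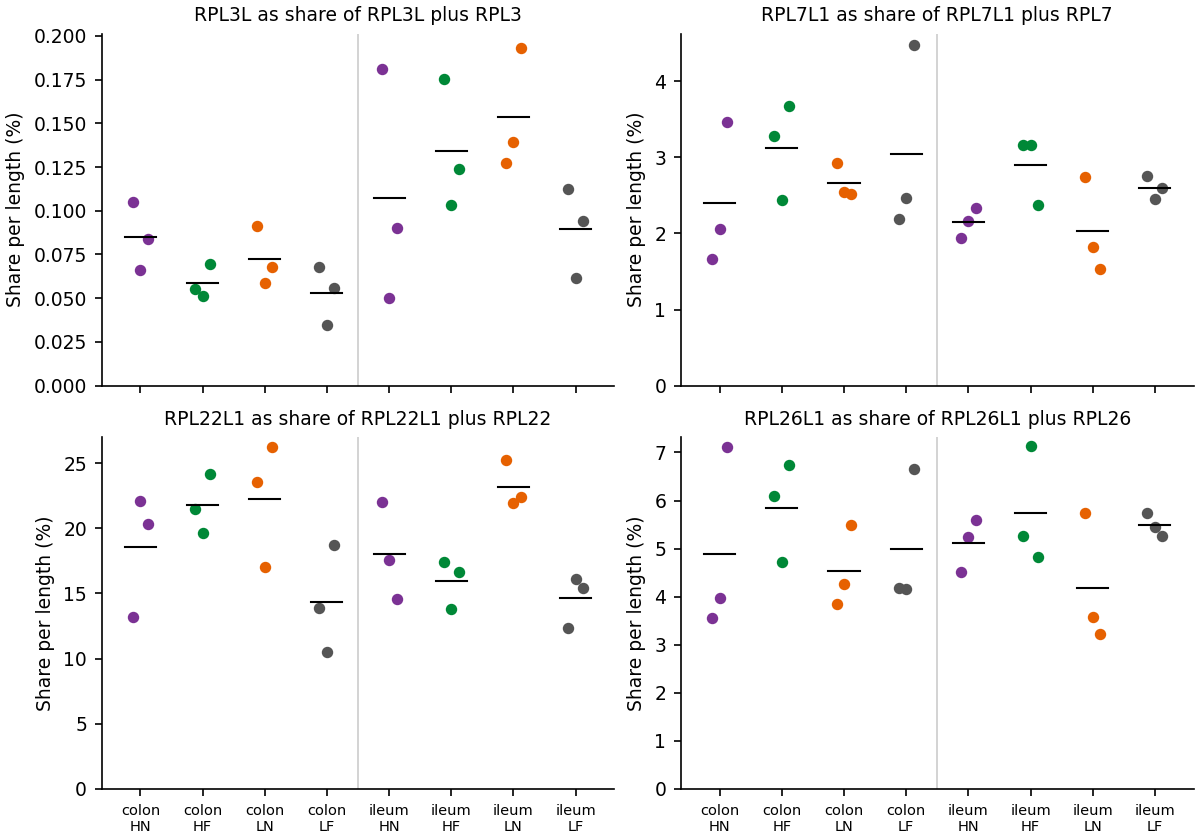
Share of a paralog in the summed level per length of the paralog and its partner (vertical axes, %, each starting at 0) for 4 pairs in the 8 groups; points are libraries and lines are means of 3 libraries. RPL3L lies lower in the colon (mean 0.0673%) than in the ileum (0.121%), and RPL22L1 in ileum LN (22.0% to 25.2%) lies above ileum LF (12.3% to 16.1%).

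How closely the genes move together was measured as the Spearman coefficient between each gene and the mean of the others over the 12 libraries of a tissue, which share depth and composition within a library. The median was 0.71 in the colon and 0.90 in the ileum. In the ileum 66 of 79 genes exceeded 0.8, and in the colon 30 did. The least alike were RPL3L (-0.13), RPL7 (0.05) and RPL26 (0.08) in the colon and RPL22L1 (0.22), RPL7 (0.30) and RPL3L (0.33) in the ileum. RPL7 illustrates this: its level in colon HN was 1294, 1030.2 and 775 CPM, so that HN 1 was its highest colon library, whereas the mean of the other genes had HN 1 among the lowest. Among 10638 other genes with a mean log2 CPM above 3, those most like the ribosomal protein mean were EEF1D (0.93), an elongation factor subunit, TSPAN3, HS1BP3, TRAPPC5 and GABARAPL2 (0.92 to 0.90) in the colon, and CLPTM1L and ZC3H10 (0.97), EEF1G (0.95) and AVEN (0.94) in the ileum. AVEN was tied with others, among them the elongation factor subunits EEF1B2 and EEF1D, the plasma cell marker TNFRSF17 and PRDX4. GABARAPL2 was tied with a row described as the ubiquitin-like protein FUBI.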

How the data were processed

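Per the submitters' processing notes, the tools named for the authors' work were HTSeq 0.9.1, HISAT2 2.1.0 and fastp 0.22.0, on build Sscrofa11.1; counting settings are not given in the sources used here. The authors deposited raw counts per gene and library, FPKM values, and a gene length in bases (other unit, per the file headers). The deposited FPKM follow from counts and length within a relative difference of 2.1e-07 and were not used further. All 81 genes matched RefSeq Sscrofa11.1 by gene ID.

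The models were fitted to the counts with edgeR 4.0.16 under R 4.3.3 (filterByExpr, TMM, quasi-likelihood F-test; Benjamini-Hochberg threshold 0.05 over all genes tested), in 1 model of 4 diet means per tissue and 1 of 8 group means over 24 libraries. SE is the log2 change divided by the root of F. Printed CPM use the TMM factors of the 24 libraries. Paralog ratios were tested by permutation in scipy 1.17.1, exact for 6 against 6 libraries and with 100000 resamples for 12 against 12. DESeq2 1.42.0 and other settings are alternatives. Models were tested on simulated data first.

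The genes and lists were chosen with earlier results of these data known. The named genes were those with the smallest p (6 per direction where they passed, otherwise 3), the 5 highest and lowest levels, paralogs, a set of well-known proteins, the 3 least alike, and the 3 smallest p per list. Of the lists, 16 of 23 oxidative phosphorylation symbols were found. Promoter features were not used here, and a few genes that these rules pick are not reported here or drawn. No library was a repeat of another. Replicate numbers were not taken as pairs, since the labels tie no libraries together and not every same-numbered pair correlated over 0.1.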

Additional observations from a re-analysis of the deposited data

How the results depend on the processing

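The median colon against ileum change of the ribosomal protein genes stayed negative in every alternative run: 55 genes were called with RLE scaling, 61 with TMM factors set without these genes, 52 with no filter on counts, 64 with DESeq2 and 36 with the length trend removed (median -0.23), where 75 genes stayed negative and 4 turned positive, RPL7L1 (0.0042) among them. DESeq2 called 16.2% of all genes lower and 15.3% higher. For the other runs the share of all genes is not given here, so a change in these counts may not be particular to the ribosomal protein genes. Without single libraries 42 (without ileum LF 2) to 66 were called; RPL3, RPL5, RPS6 and RPLP1 lost their calls in 18, 11, 10 and 6 of these, and RPLP0 gained it in 4. For NCG in the ileum DESeq2 called 12 genes, and without single libraries 0 to 1 were called (RPL26L1 without LN 1, -0.53, adjusted p = 0.0229, named after its value was seen); the median was -0.048 with the length trend removed. For NCG in the colon DESeq2 called 6 genes, and the median turned to 0.036 with the length trend removed. Replicate numbers were shared by the groups, and the correlations of same-numbered libraries ran from -0.52 to 0.81. They exceeded 0.1 for 5 of 12 pairs of colon and ileum, 7 of 18 pairs of colon diets and 8 of 18 pairs of ileum diets. In HF, all 3 pairs of colon and ileum did (0.307, 0.168 and 0.213). With the replicate block 53 genes were called between colon and ileum and 0 for NCG and fibre in either tissue. The share of counts moved with the denominator: without mitochondrially encoded genes it was 7.44% in ileum HF and 6.08% in colon HF, and without the 10 most abundant genes of each library it was 7.67% in ileum HN, 7.95% in ileum HF, 6.07% in ileum LN, 8.05% in ileum LF, 6.30% in colon HF and 5.94% in colon LF. Of 1059 values of single genes under alternatives 979 kept direction and side of the threshold. The omissions of libraries HN 1 with LF 2 in the colon and LN 3 with LF 3 in the ileum were chosen after seeing the data. What can be called is limited by the spread between libraries, whose common coefficient of biological variation over all tested genes was 0.461 for ileum and 0.472 for colon samples. It does not describe the ribosomal protein genes alone. Their SD of log2 CPM over 12 libraries ran from 0.103 (RPS6) to 0.423 (RPL22L1) in the colon. In the ileum it ran from 0.177 (RPL15) to 0.603 (RPL3L).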
